A study of Homo sapiens with 6 samples.

Results

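The 10 genes described here encode alpha and beta tubulin, and were chosen by name as a gene family. They are TUBA1A, TUBA1B, TUBA1C and TUBA4A for alpha tubulin and TUBB, TUBB2A, TUBB2B, TUBB3, TUBB4B and TUBB6 for beta tubulin. All 10 were among the 16834 genes of the table and all 10 entered the test. The RNA came from asynchronous HEK293-T Flp-In cells, a human embryonic kidney line in which a single copy of the ccTaggedRP construct had been inserted. The construct, driven by the CAG promoter, makes 2 tagged forms of the ribosomal protein RPL10a from the same mRNA. Flag-RPL10a-hCdt carries a degron of CDT1, for presence in G1 and S. Its partner HA-RPL10a-hGem carries a degron of Geminin, for presence in S, G2 and M. Each form was immunoprecipitated from lysates with an antibody to its tag, giving 3 Flag-IPs and 3 HA-IPs. The RNA recovered with it was sequenced. All 6 libraries are of the same line, with both tagged forms in every culture, grown in medium with serum and the selection drug hygromycin B, and no source used here says whether replicates were separate cultures, so p-values measure only the spread between these samples.

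Alpha and beta tubulin pair into the dimer from which microtubules, and so the mitotic spindle, are built. Each chain is made from several genes, called isotypes, whose proteins are alike except mainly at the end of the chain. Cells adjust tubulin mRNA to the amount of free dimer: when free dimer is in excess, TTC5 binds the first residues of a new tubulin chain as it leaves the ribosome, and through SCAPER and the CCR4-NOT complex the mRNA on that ribosome is degraded. The comparison of HA-IPs with Flag-IPs asks whether ribosomes tagged in different parts of the cell cycle carried different amounts of each tubulin mRNA. As no library of the whole lysate was analysed here, more mRNA and more mRNA per ribosome cannot be told apart. Tag, antibody and degron also differ together between the groups, and no IP from cells without the tags was among the libraries. RNA recovered without a tagged ribosome therefore cannot be told apart from mRNA on tagged ribosomes.

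The start of the coding sequence is shown because it encodes the residues that TTC5 reads. Sequences are the first 30 coding bases, 5′ to 3′, of the Ensembl canonical transcripts in GENCODE release 44 on GRCh38, with the first 4 codons in capitals. These codons stand for methionine, arginine and glutamate, followed by cysteine in alpha tubulin and by isoleucine in beta tubulin.
TUBA1A, TUBA1B and TUBA1C: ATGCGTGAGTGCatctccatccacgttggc
TUBA4A: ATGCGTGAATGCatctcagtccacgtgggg
TUBB: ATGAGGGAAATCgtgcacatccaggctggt
TUBB2A: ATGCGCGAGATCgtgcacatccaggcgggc
TUBB2B: ATGCGTGAGATCgtgcacatccaggcgggc
TUBB3: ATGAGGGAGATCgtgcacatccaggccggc
TUBB4B: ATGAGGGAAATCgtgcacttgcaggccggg
TUBB6: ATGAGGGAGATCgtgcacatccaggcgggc
The TUBA1A, TUBA1B and TUBA1C sequences are identical over this stretch. In the 4 alpha genes the first coding exon holds 3 coding bases, so the stretch crosses a splice junction, whereas in the 6 beta genes it lies in a first coding exon with 57 coding bases. Over the whole coding sequence, identity between pairs of beta genes ran from 80.9% to 98.2% over 15 pairs, that between alpha genes from 84.4% to 97.2% over 6 pairs, and that between an alpha and a beta gene from 51.9% to 54.0% over 24 pairs.

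Each gene has 4 exons in its canonical transcript. The 3 TUBA1 genes lie together on chromosome 12, with TUBA1A at chr12:49184686-49189080 on the minus strand, TUBA1B at chr12:49127782-49131397 on the minus strand and TUBA1C at chr12:49188736-49274600 on the plus strand. The annotated ends of TUBA1A and TUBA1C overlap on opposite strands, and the strand setting of the counting is not given in the sources used here, so reads in the overlap cannot be assigned to one of them with certainty. TUBA4A is at chr2:219249710-219277902 on the minus strand. TUBB is at chr6:30717435-30725538 on the plus strand, and TUBB2A and TUBB2B are at chr6:3153497-3157544 and chr6:3223324-3231730, both on the minus strand. TUBB3 is at chr16:89921392-89938761, TUBB4B at chr9:137241287-137243707 and TUBB6 at chr18:12307669-12344320, all on the plus strand.

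Because isotypes resemble each other, the share of 150-base stretches of each transcript that also occur in a transcript of another gene was computed. The share was 0 for TUBA4A, TUBB4B and TUBB6 and 2.66% for TUBB, whose shared stretches are those of the pseudogene TUBBP1. It was 7.22% for TUBA1C, 8.01% for TUBA1A and 19.1% for TUBA1B. It was 41.6% for TUBB2B and 48.7% for TUBB2A, which share mainly with each other, and 92.3% for TUBB3, which shares them with an overlapping gene that the annotation marks as a read-through. Counts of TUBB2A, TUBB2B and TUBB3 are therefore uncertain to the extent that counting split or dropped such reads. To a lesser degree this holds for TUBA1B, which shares 12% of its stretches with TUBA1C and 7.17% with TUBA1A. The alpha sums and shares below carry the same limit.

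The libraries held 23174532 to 33429519 reads on listed genes among Flag-IPs, against 28737728 to 44134833 among HA-IPs. Levels below are normalized counts, reads divided by a size factor for each library. Of the 14 kidney epithelium markers examined, 11 were listed, EPCAM and CDH1 among them, and CDH16, UMOD and NPHS1 were not. Of all genes, 7.1% were called higher and 5.79% lower in the Flag-IPs. Heart muscle genes stood apart in the Flag-IPs: of 20 listed, 19 were higher there and 1, MYOM2, was lower, with summed levels of 80900 to 170900 among Flag-IPs, against 6330 to 20210 among HA-IPs. Of 10 fibroblast genes 7 were higher and 1 was lower in the Flag-IPs, and of 7 endothelial genes 5 were higher. Of the 11 kidney epithelium genes 4 were higher and 2 were lower. Of 9 neuron genes 1 was lower in the Flag-IPs and 8 were not called. These counts cover listed genes only. Of 25 heart muscle markers, MYL4, MYL7, NPPA, NPPB and PLN were not listed. Not listed either were PECAM1, CDH5 and EMCN of 10 endothelial markers, and LUM and THY1 of 12 fibroblast markers. Of 10 neuron markers, ELAVL3 was not listed.

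TUBB had the most normalized counts per kilobase of the tubulin genes in both IPs, and TUBB3 the fewest by mean over all libraries. TUBB3 shares 92.3% of its 150-base stretches with another gene, so its level may be too low if counting dropped such reads. TUBB reached 18480 ± 256 normalized counts per kilobase among Flag-IPs, against 20910 ± 132 among HA-IPs (SD, n = 3), and its mean normalized count ranked 36 among the 16834 genes, where that of TUBB3 ranked 13272. TUBA1B, the main alpha isotype of most dividing cells, had 12730 ± 931 and 12330 ± 601, and TUBB4B, a broadly expressed beta isotype also used in cilia, had 8183 ± 30.3 and 8703 ± 98.9. TUBA1C, TUBA1A and TUBB6 followed, and in the Flag-IPs their values per kilobase overlapped, from 1788.5 to 2304.5. In the HA-IPs TUBA1C, at 2288.6 to 2462.1, lay above TUBA1A, at 1915.6 to 2115.2, and above TUBB6, at 1935.1 to 2030.9. This order depends on the canonical lengths, 2823 bases for TUBA1C, 1672 for TUBA1A and 1879 for TUBB6. Before division by length, TUBA1C had 5464 to 6391 normalized counts in the Flag-IPs. That lay above TUBA1A, at 2990 to 3853, and TUBB6, at 3614 to 3897. Which transcripts the cells used was not tested. TUBB2B and TUBB2A were lower, at 1109 ± 67.4 and 460.4 ± 12.1 in the Flag-IPs. TUBA4A and TUBB3 were the lowest, with 113.6 ± 19.2 and 31.6 ± 8.78 among Flag-IPs, against 22.28 ± 5.69 and 23.02 ± 11 in the HA-IPs, where their ranges overlapped.

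**Figure D1:**
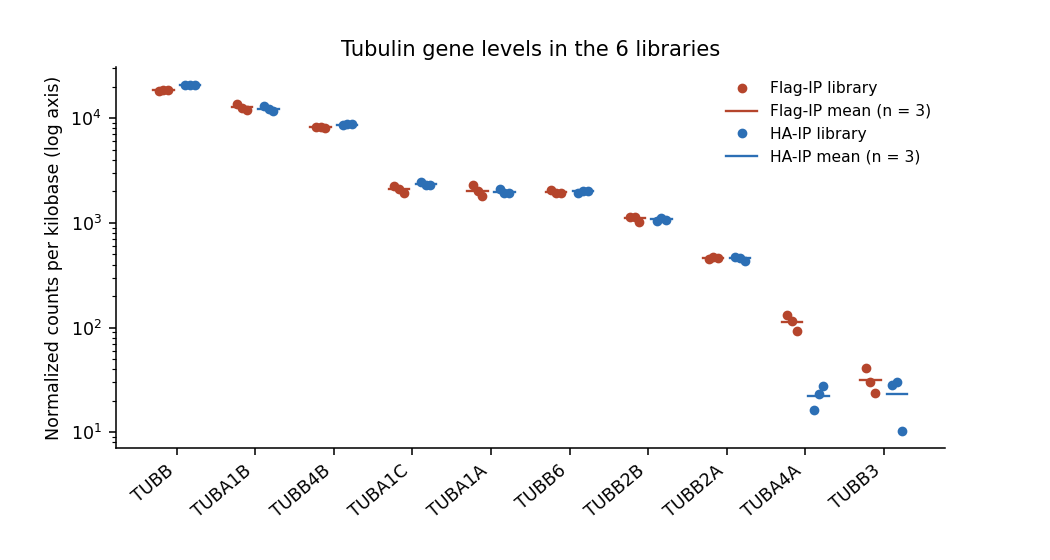
Normalized counts per kilobase of transcript on a log axis for the 10 tubulin genes, ordered by level, in the 3 Flag-IPs (red) and 3 HA-IPs (blue). Points are libraries and lines are means. TUBA4A is the gene of the 10 whose groups stand furthest apart, and the TUBB points of the HA-IPs lie above those of the Flag-IPs.

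Of the 10 genes, TUBB was higher in the HA-IPs and TUBA4A was higher in the Flag-IPs at an adjusted p of at most 0.05 (limma), and the other 8 did not pass. Leaving out Flag-IP 2 or any 1 of the HA-IPs left 1 call, TUBA4A. Of all 16834 genes 12.9% passed, 5.79% on the HA-IP side and 7.1% on the Flag-IP side, so 1 call in each direction among 10 genes is near the background. The HA-IP side held 44.9% of these calls, 23% with the same total per library, 34.7% with GC content and length trends removed and 3.19% in limma without the trend. Groups did not overlap for 4 of the 10, 3 of them higher in the HA-IPs, against 32.2% of all genes. The median log2 fold change (HA-IP over Flag-IP) was -0.02 over the 10 genes and -0.0049 over all genes.

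**Figure D2:**
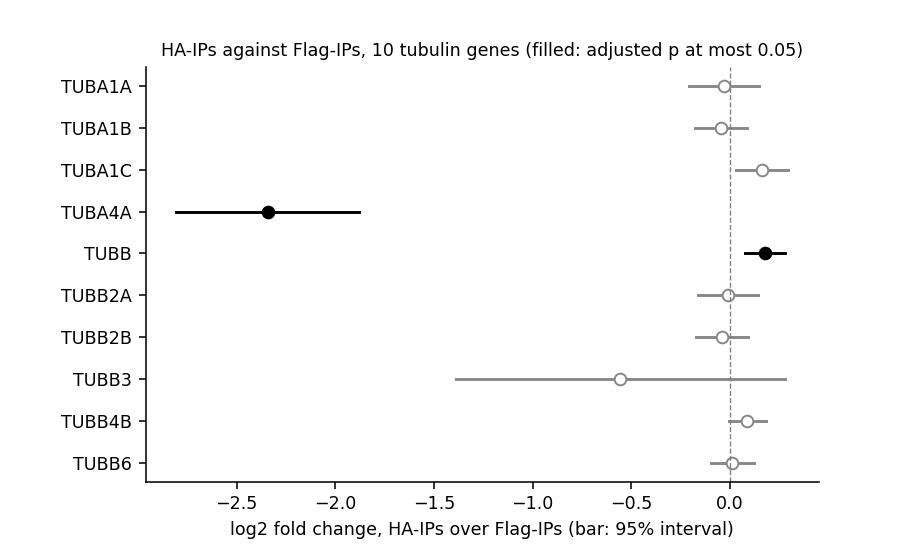
log2 fold change (HA-IP over Flag-IP) for each tubulin gene, with its 95% interval from limma, filled where the adjusted p was at most 0.05. TUBA4A lies at -2.34 and TUBB at 0.18, and the interval of TUBB3 runs from -1.39 to 0.28.

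TUBA1A, the alpha isotype best known from developing neurons, had 3853, 3362 and 2990 normalized counts among Flag-IPs, against 3537, 3203 and 3215 among HA-IPs. The groups overlapped, and the log2 fold change was -0.03 (SE 0.082, 95% interval -0.21 to 0.15, adjusted p = 0.857). TUBA1B had 22325, 20517 and 19315 among Flag-IPs, against 21150, 19751 and 19267 among HA-IPs. These groups overlapped as well, with a log2 fold change of -0.05 (SE 0.061, 95% interval -0.18 to 0.09, adjusted p = 0.688). In percent the 95% interval of the difference was -11.6% to 6.21% for TUBA1B and -13.5% to 10.9% for TUBA1A.

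TUBA1C had 6391, 5929 and 5464 normalized counts among Flag-IPs, against 6950, 6483 and 6461 among HA-IPs. The groups did not overlap, though the highest Flag-IP was close to the lowest HA-IP. The log2 fold change was 0.16 (SE 0.061, 95% interval 0.03 to 0.30) with an unadjusted p of 0.0204 and an adjusted p of 0.104. Of 18 alternatives 1 passed, the fit without Flag-IP 1, with an adjusted p of 0.017. The other fits that left out a library gave 0.16 to 0.323, and quantile normalization gave 0.363.

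TUBA4A, an isotype that lacks the encoded C-terminal tyrosine of other alpha tubulins, had 270, 236 and 192 normalized counts among Flag-IPs, against 33.2, 47.5 and 56.2 in the HA-IPs. The lowest Flag-IP was far above the highest HA-IP. In whole reads these are 208, 222 and 208 against 47, 48 and 51. The log2 fold change was -2.34 (SE 0.212, 95% interval -2.81 to -1.88, adjusted p = 0.000135), a difference of -80.3%. Its adjusted p was at most 0.05 in all 18 alternatives, and leaving out each library in turn gave log2 fold changes from -2.51 to -2.13.

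Other RNAs were higher in the same libraries. The tubulin pseudogene TUBAP2 had 114, 44.7 and 37.8 normalized counts among Flag-IPs, against 12, 12.9 and 11 in the HA-IPs, a log2 fold change of -2.19 (SE 0.391, adjusted p = 0.0055). The other listed tubulin pseudogene, TUBBP1, had 29.9, 35.1 and 49.8 against 50.8, 39.6 and 30.9, a log2 fold change of 0.08 (SE 0.281, adjusted p = 0.888). The heart muscle genes had a median log2 fold change of -4.1 in the same direction. MYH7, a myosin heavy chain of heart muscle, had 83895, 65504 and 42902 normalized counts among Flag-IPs, against 1031, 478 and 6766 among HA-IPs. TUBA8, an alpha tubulin of muscle and testis, was near 0, with 3.9, 12.8 and 6.46 among Flag-IPs, against 7.06, 10.9 and 1.1 in the HA-IPs. The part of these other RNAs in the TUBA4A difference was not tested.

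**Figure D3:**
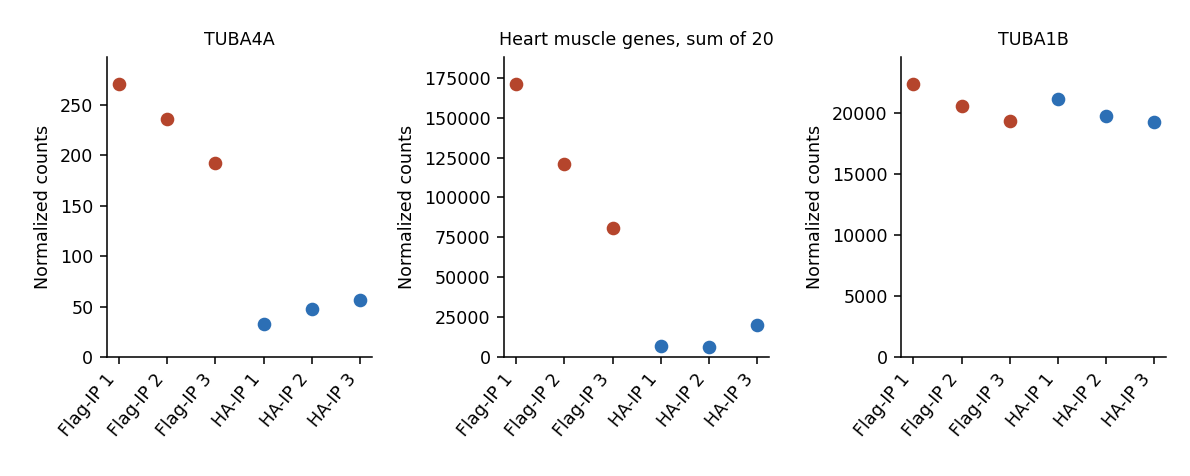
Normalized counts by library, from 0, of TUBA4A, of the summed 20 heart muscle genes and of TUBA1B. The Flag-IPs (red) lie above the HA-IPs (blue) for TUBA4A and for the heart muscle genes, and the groups overlap for TUBA1B.

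TUBB, the beta isotype found in nearly every cell, had 45782, 46576 and 47056 normalized counts among Flag-IPs, against 52220, 52734 and 52843 among HA-IPs. The groups did not overlap, and their spread was narrow, with coefficients of variation of 1.38% and 0.632%. The log2 fold change was 0.18 (SE 0.046, 95% interval 0.08 to 0.28, adjusted p = 0.0273), a difference of 13.2%. The call changed with the scale and with single libraries. It held in 12 of 18 alternatives. Of the others, quantile normalization gave a log2 fold change of 0.02 with an adjusted p of 0.74, and limma without a trend of variance on mean gave an adjusted p of 0.121. Of the 6 fits that left out a library it held without Flag-IP 1 and without Flag-IP 3, and the adjusted p was 0.097 to 0.127 without Flag-IP 2 or any 1 of the HA-IPs.

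TUBB4B had 12826, 12808 and 12736 normalized counts among Flag-IPs, against 13425, 13674 and 13709 among HA-IPs. The groups did not overlap, and the log2 fold change was 0.09 (SE 0.042, adjusted p = 0.203). With the trends of GC content and length removed it was 0.16 with an adjusted p of 0.0167, and with quantile normalization it was -0.0034.

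TUBB6 had 3897, 3614 and 3645 normalized counts among Flag-IPs, against 3636, 3816 and 3808 among HA-IPs. The groups overlapped and the log2 fold change was 0.01 (SE 0.051, adjusted p = 0.895). TUBB2A, a close copy of TUBB2B, had 723, 762 and 746 among Flag-IPs, against 768, 754 and 697 among HA-IPs, with a log2 fold change of -0.0098 (SE 0.07, adjusted p = 0.948). TUBB2B, a beta isotype of the developing brain, had 2208, 2203 and 1981 among Flag-IPs, against 2003, 2143 and 2071 among HA-IPs, with a log2 fold change of -0.04 (SE 0.06, adjusted p = 0.735). The groups of these 3 genes overlapped, and the 95% intervals of their differences lay between -11.1% and 10.4%.

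For TUBB3, the neuronal beta isotype, a difference was not detectable with the few reads counted for it. It had 54, 48 and 44 whole reads among Flag-IPs, against 69, 52 and 16 among HA-IPs, and 70.1, 51.0 and 40.6 against 48.7, 51.5 and 17.6 normalized counts. The library with the lowest value was HA-IP 3. The log2 fold change was -0.55 (SE 0.38, 95% interval -1.39 to 0.28, adjusted p = 0.392), and without HA-IP 3 it was -0.069 (adjusted p = 0.911).

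Summed over isotypes, beta tubulin did not overlap between the groups, with the HA-IPs above, and alpha tubulin overlapped. TUBB made up 61.1% of beta per kilobase on average in the Flag-IPs and 63% in the HA-IPs. Taken singly, the groups did not overlap for 2 of the 6 beta genes, TUBB and TUBB4B, which is near the 32.2% of all genes. The alpha sum was 32839, 30045 and 27961 normalized counts among Flag-IPs, against 31670, 29484 and 29000 among HA-IPs, which overlapped (exact permutation test, two-sided, p = 0.9). The beta sum was 65506, 66015 and 66206 among Flag-IPs, against 72102, 73172 and 73145 among HA-IPs, a difference of 10.5% in which all HA-IPs lay above all Flag-IPs. Its exact permutation p of 0.1 is the smallest that 3 against 3 allows. Per kilobase the beta difference was 9.7% with size factors, 5.74% with the same total per library, 9.42% with TMM and 0.782% with quantile normalization, where the groups overlapped. All 10 genes together took 0.327%, 0.32% and 0.305% of the reads among Flag-IPs, against 0.333%, 0.326% and 0.322% in the HA-IPs (exact permutation p = 0.3).

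Shares within a library do not depend on its size factor. Per kilobase, alpha tubulin made up 37.9%, 35.7% and 34.1% of alpha and beta among Flag-IPs, against 34.9%, 32.9% and 32.5% in the HA-IPs. The means were 35.9% ± 1.9 and 33.5% ± 1.3 (SD, n = 3), a difference of -2.47 percentage points, with overlapping groups and an exact permutation p of 0.2. The difference was -1.46 points without Flag-IP 1 and -3.39 points without Flag-IP 3. With all libraries and no division by transcript length it was -2.24 points.

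Within beta tubulin the share of TUBB was 60.4%, 61.1% and 61.7% among Flag-IPs, against 63.2%, 62.9% and 63.0% in the HA-IPs. Within alpha tubulin the share of TUBA1C was 12.3%, 12.5% and 12.3% among Flag-IPs, against 14.0%, 14.0% and 14.2% in the HA-IPs. These were the 2 shares that were higher in every HA-IP than in every Flag-IP. TUBA1B, TUBA4A, TUBB2A, TUBB2B, TUBB4B and TUBB6 had lower shares in every HA-IP, from 75% to 73.9% of alpha for TUBA1B and from 27.1% to 26.2% of beta for TUBB4B. The groups did not overlap for these 8 of 10 shares, each with an exact permutation p of 0.1, the smallest possible, and 0.125 after Benjamini-Hochberg adjustment over the 10. TUBA1A and TUBB3 overlapped. Shares within a chain sum to 100%, so a higher share of one isotype lowers the others and the 10 are not independent.

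**Figure D4:**
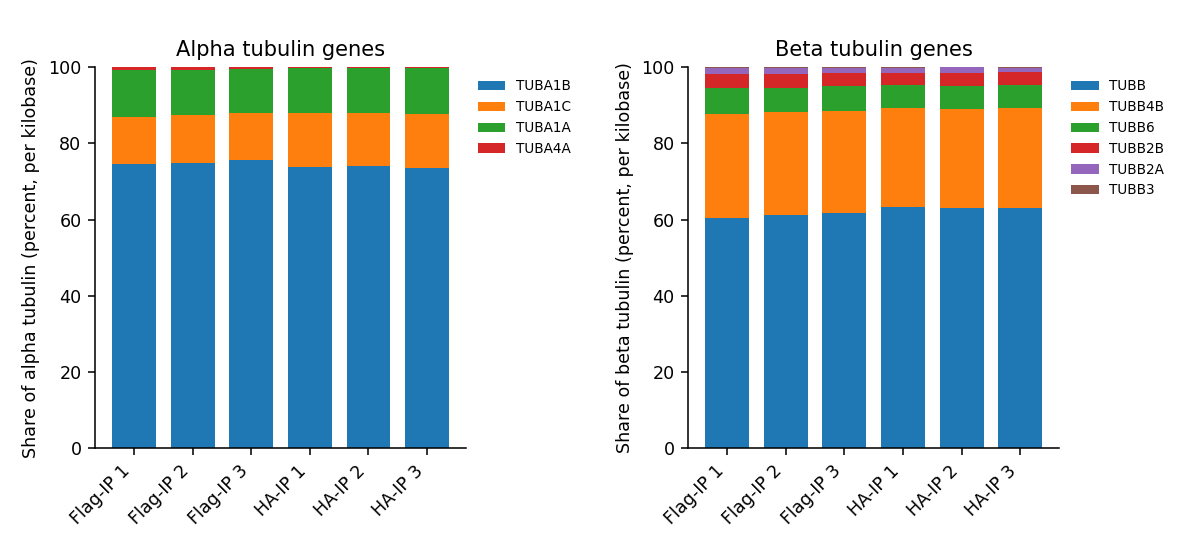
Stacked shares, in percent of normalized counts per kilobase, of the alpha genes (left) and beta genes (right) in each library. TUBA1B makes up 75% and 73.9% of alpha on average in the Flag-IPs and HA-IPs, and TUBB makes up 61.1% and 63% of beta.

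Other tubulin genes, and genes that fold or modify tubulin, act on tubulin mRNA, or nucleate or bind microtubules, were taken from lists of known function. Their counts of calls stand beside the 12.9% of all genes that passed, and over the lists together 18 of 112 genes, or 16.1%, passed, which is near that share. Of 7 other tubulin genes listed, 2 passed and both were higher in the Flag-IPs, the genes of gamma tubulin, which nucleates microtubules. TUBG1 had 3986, 3708 and 3792 normalized counts among Flag-IPs, against 3120, 3314 and 3374 among HA-IPs, a log2 fold change of -0.23 (SE 0.052, adjusted p = 0.0166), and TUBG2 had 691, 625 and 469 against 350, 397 and 393, a log2 fold change of -0.63 (SE 0.128, adjusted p = 0.00998). The other 17 of the 19 genes of the gamma tubulin ring complex and augmin did not pass.

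For the chaperonin CCT, which folds new tubulin and actin, and its phosducin-like cofactors, 2 of 10 listed genes passed, both higher in the HA-IPs, where 5.79% of all genes passed on that side. CCT4 had 25606, 23771 and 25031 normalized counts among Flag-IPs, against 30927, 28944 and 31073 among HA-IPs, a log2 fold change of 0.29 (SE 0.051, adjusted p = 0.00519). CCT5 followed with 0.21 (SE 0.047, adjusted p = 0.0146). Groups did not overlap for 7 of the 10, of which 6 were higher in the HA-IPs and 1, PDCL3, in the Flag-IPs, against 32.2% of all genes in either direction. The median log2 fold change of the list was 0.12 with size factors and -0.0016 with quantile normalization, where 1 gene was called in each direction. For prefoldin, which hands unfolded tubulin to CCT, 2 of 6 passed on the Flag-IP side, as did 7.1% of all genes: PFDN2 at -0.39 (SE 0.104, adjusted p = 0.0323) and PFDN5 at -0.44 (SE 0.122, adjusted p = 0.0381). Both calls were lost when the trends with GC content and length were removed. Among 8 folding cofactors, TBCD, which holds beta tubulin for dimer assembly, was higher in the HA-IPs, with a log2 fold change of 0.28 (SE 0.058, adjusted p = 0.0101), and the other 7 did not pass.

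Of the 12 genes of tubulin mRNA autoregulation, 1 passed with a higher level among HA-IPs and 2 with a higher level among Flag-IPs, where 5.79% and 7.1% of all genes did. TTC5, the sensor, had 1119, 1112 and 1048 normalized counts among Flag-IPs, against 1073, 1103 and 1140 among HA-IPs, a log2 fold change of 0.02 (SE 0.061, adjusted p = 0.895). SCAPER, the adaptor between TTC5 and the deadenylase, gave 0.11 (SE 0.063, adjusted p = 0.272). CNOT11, the CCR4-NOT subunit that SCAPER recruits, had 1634, 1716 and 2023 against 2150, 2149 and 2139, a log2 fold change of 0.27 (SE 0.074, adjusted p = 0.0362). CNOT7, a catalytic deadenylase subunit, had 1444, 1324 and 1066 against 894, 941 and 923, a log2 fold change of -0.46 (SE 0.096, adjusted p = 0.0109). CNOT2 gave -0.25 (SE 0.071, adjusted p = 0.0389). The list as a whole had a median log2 fold change of 0.002.

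Of 19 listed enzymes that modify tubulin, HDAC6, a deacetylase, was higher in the HA-IPs at 0.18 (SE 0.052, adjusted p = 0.0442) and AGBL5, a deglutamylase, was higher in the Flag-IPs at -0.25 (SE 0.048, adjusted p = 0.0073). Of 34 microtubule binding proteins, 4 passed on the HA-IP side and 2 on the Flag-IP side, against 12.9% of all genes in either direction. The 4 included CLASP2, which stabilises growing ends, at 0.30 (SE 0.053, adjusted p = 0.00537), and CKAP2, a spindle protein, at 0.24 (SE 0.053, adjusted p = 0.0132). On the Flag-IP side STMN1, which binds free tubulin, was at -0.25 (SE 0.068, adjusted p = 0.0347).

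Of the 18 genes called in these lists, each counted once, CCT4 and CLASP2 kept their call whichever library was left out, and the other 16 lost it in at least 1 of those 6 fits, with highest adjusted p-values from 0.0507 for AGBL5 to 0.159 for PFDN5. With quantile normalization 14 of the 18 were called, CCT5, HDAC6 and PFDN5 not among them, and with GC content and length trends removed 13 were called, HDAC6, PFDN2 and PFDN5 not among them.

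**Figure D5:**
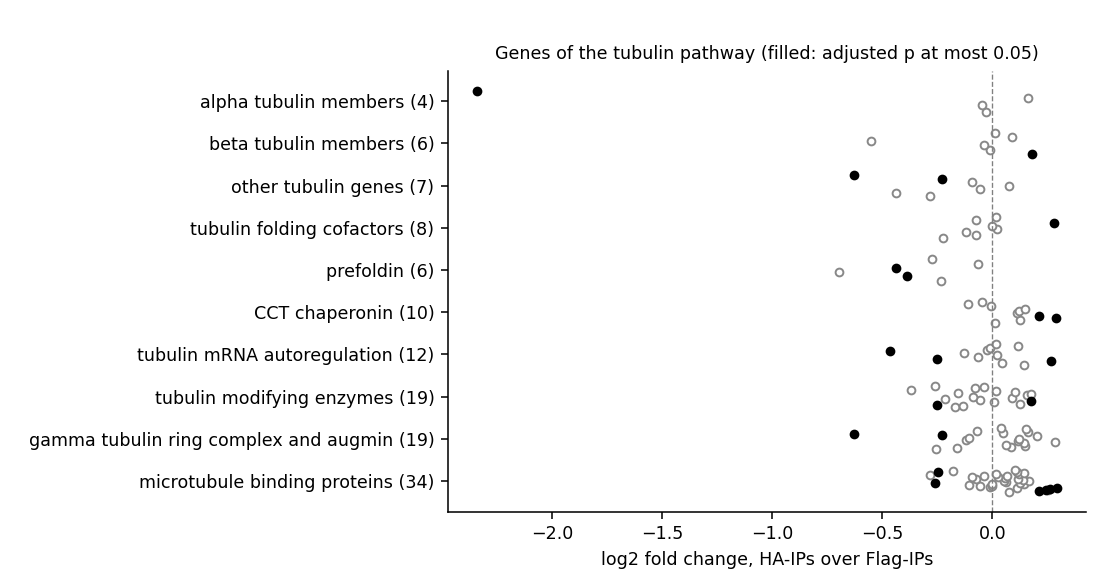
log2 fold changes (HA-IP over Flag-IP) for every listed gene of 10 groups, with the number of genes in brackets, filled where the adjusted p was at most 0.05. TUBA4A at -2.34 is the only point below -1, and the CCT genes CCT4 and CCT5 lie at 0.29 and 0.21.

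The genes whose profile over the 6 libraries was most like the mean centred profile of the 6 beta genes were ZNF567 (distance 0.061 on the log2 scale, Pearson r 0.974), ZNF546 (0.076, r 0.954) and MKNK1 (0.077, r 0.951), among 11597 candidates. The mean profile gives each beta gene the same weight, so TUBB3, with 16 to 69 reads, sets much of it.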

How the data were processed

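Per the labels, polyadenylated RNA of the 3 Flag-IPs and 3 HA-IPs was read as 2 x 150 bp. The submitters' processing notes name Trimmomatic 0.36, STAR 2.5.2b and featureCounts of Subread 1.5.2 on GRCh38. The authors dropped genes that lacked 10 reads in 3 samples and deposited a normalized signal per gene and library, which is the read count divided by a DESeq2 size factor. Their fold changes and adjusted p-values, also in the table, were not used. Whole reads were recovered for all 6 libraries, with 100% of values whole within 0.01 read.

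HA-IPs and Flag-IPs were compared by limma 3.58.1 (R 4.3.3), fitted to log2(normalized count + 1) with a variance trend, two-sided, Benjamini-Hochberg over 16834 genes, called at an adjusted p of at most 0.05. Fold changes are on this scale. Alternatives were edgeR 4.0.16 and DESeq2 1.42.0 on recovered reads, other pseudocounts, filters and scalings, a replicate block, removed GC and length trends, and each library left out. Scripts were tested on simulated data. Shares and sums were tested with exact permutation in scipy 1.17.1. Annotation was GENCODE release 44, which held 99.1% of the identifiers. Levels per kilobase divide by canonical transcript length. Replicates were mapped from the sample titles. The members and lists were chosen with earlier results of these data known. Named are all 10 members, TTC5, SCAPER, CNOT11, TUBG1, at most 2 genes per direction of each list by adjusted p, the pseudogenes and the 3 most similar genes. MYH7, MYOM2, PDCL3, TUBA8, EPCAM and CDH1 were named after their values were seen. A gene that this rule would name is not reported here.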

Additional observations from a re-analysis of the deposited data

How the results depend on the processing

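TUBA4A kept its direction and its call in all 18 alternatives. The number of tubulin genes called was 2, and it was 1 with quantile normalization, 1 in limma without the trend, 1 to 3 when a library was left out (1 without Flag-IP 2 or any 1 of the HA-IPs, 3 without Flag-IP 1), and 3 with GC and length trends removed. Over all genes, 2171 were called, 188 without the trend and 620 to 3059 when a library was left out, with 620 without Flag-IP 2, 780 without HA-IP 1, 900 without HA-IP 2 and 1216 without HA-IP 3. With the replicate block 1662 genes were called and the 2 tubulin calls were kept. In deviations from the group means, same-numbered libraries correlated across genes at -0.156, 0.0306 and -0.31, and differently numbered ones at -0.243 to 0.302. Deviations from means of 3 libraries cannot show whether same-numbered samples shared a culture or lysate, and the labels do not say. In the paired form, the alpha share differed by -2.47 points with a sign-flip p of 0.25, the smallest that 3 pairs allow. Unpaired, it differed by -3.39 to -1.46 points when a library was left out. Differences near 0 changed sign: TUBB2A was 0.0283 and TUBB4B -0.00339 with quantile normalization, TUBB6 was -0.0266 with quantile normalization and -0.0392 with the same total per library, and with GC and length trends removed, with or without the block, TUBA1A was 0.000154 and TUBB2A 0.052. Without single libraries, TUBA1A was between -0.119 and 0.064, TUBA1B between -0.0949 and 0.00963, TUBB2A between -0.0374 and 0.0323, TUBB3 between -0.816 and -0.0694 and TUBB6 between -0.00646 and 0.0479. Quantile normalization and equal totals moved the median of all genes by 0.053 and -0.053. The cause of these changes was not tested. TUBB3 rests on 16 to 69 reads per library.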
